A study of Rattus norvegicus with 3 samples.

Results

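Interferon gamma response genes are described here in electroporated rat muscle: the 9 genes Irf1, Irf8, Socs1, Ciita, Ido1, Irgm, Gbp2, Gbp5 and Slamf8, of 14506 genes with a probe set of their own on the array. The genes were chosen by symbol, each had 1 probe set, and all 9 were measured. RNA came from the tibialis anterior muscle of male Wistar rats aged 11 weeks. All groups had eaten a high fat diet (45% of energy as fat) for 3 weeks, and all had received 150 µg of plasmid by electroporation 8 days before the muscle was taken, after 2 weeks of the diet. In the Plin5 group (OXPAT) the plasmid was pcDNA3.1-CMV-Plin5, in the Plin2 group (ADRP) it was pENTR-CMV-Plin2, and the controls received pcDNA3.1-empty vector. Plin2 and Plin5 are perilipins, proteins of the lipid droplet surface. The CMV promoter is active in many cell types, so the vector does not limit expression to muscle fibres, and the Plin2 plasmid differs from both others in its backbone as well as its insert. Each group was 1 array of RNA pooled from 6 rats. No spread between animals exists in these data, none of the differences below was tested, and the number of arrays limits their precision.

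Interferon gamma is a cytokine made mainly by T cells and natural killer cells. Its receptor activates the kinases Jak1 and Jak2. Signalling through gamma-activated sites in DNA switches on a first set of genes, among them the transcription factor Irf1, which then acts on interferon-stimulated elements of further genes. The targets make antigen presentation proteins, GTPases that attack microbes inside cells, and inhibitors such as Socs1 that end the signal. In muscle, invading macrophages and lymphocytes respond to the cytokine, and so do muscle cells themselves.

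The promoters of the response genes are shown first, since they carry letters of the cytokine's known DNA elements and the member rule did not use sequence. RefSeq promoter windows (GRCr8, 250 bases before to 50 after the annotated start) were matched by gene ID for 7 of the 9 members, all but Ciita and Ido1. Both strands were searched for the gamma-activated site TTCNNNGAA, which reads the same on both strands, and for the interferon-stimulated element, GAAA followed by any 2 bases and GAAA again. The 7 windows held 11 matches, all upstream of the start, and each window held at least 1. The gamma-activated site was in 4 of 7 windows, against 8.87% of all 33469 promoters, and the interferon-stimulated element in 5 of 7, against 3.92%. For the 12518 promoters of genes on the array the shares were 7.64% and 3.51%. The members were chosen as interferon response genes, so these shares describe them and are no test. Each line below runs 5′ to 3′ on the gene's strand from 15 bases before the first match to 15 bases after the last, with the matches in capitals; a match describes letters and does not show that a factor bound there.
Irf1: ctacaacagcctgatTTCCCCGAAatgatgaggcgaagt
Irf8: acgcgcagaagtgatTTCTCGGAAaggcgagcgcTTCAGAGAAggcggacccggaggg
Socs1: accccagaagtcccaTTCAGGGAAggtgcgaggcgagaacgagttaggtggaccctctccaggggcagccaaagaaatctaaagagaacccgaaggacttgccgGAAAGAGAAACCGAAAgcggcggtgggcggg
Irgm: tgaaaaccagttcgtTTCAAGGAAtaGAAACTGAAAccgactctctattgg
Gbp2: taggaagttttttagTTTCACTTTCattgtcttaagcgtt
Gbp5: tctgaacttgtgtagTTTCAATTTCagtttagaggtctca
Slamf8: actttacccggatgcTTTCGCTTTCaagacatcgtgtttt

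Irf1 (chr10:38417778-38417816, plus strand) and Irf8 (chr19:65699089-65699146, plus strand) held gamma-activated sites alone, 1 in Irf1 from -142 to -134 and a pair in Irf8 from -180 and -161. Gbp2 (chr2:234005681-234005720, plus strand), Gbp5 (chr2:233910928-233910967, plus strand) and Slamf8 (chr13:87589602-87589641, minus strand) held the interferon-stimulated element alone. In those 3 genes it lay on the opposite strand, between −66 and the start, so TTTC takes the place of GAAA in the lines above. Both motifs stood in Socs1 (chr10:5389363-5389497, plus strand) and in Irgm (chr10:33742588-33742638, minus strand). In Irgm the motifs were close neighbours, from -45 to -37 and from -34 to -25. In Socs1 the gamma-activated site began at -196, and 2 overlapping interferon-stimulated elements covered -107 to -92.

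**Figure D1:**
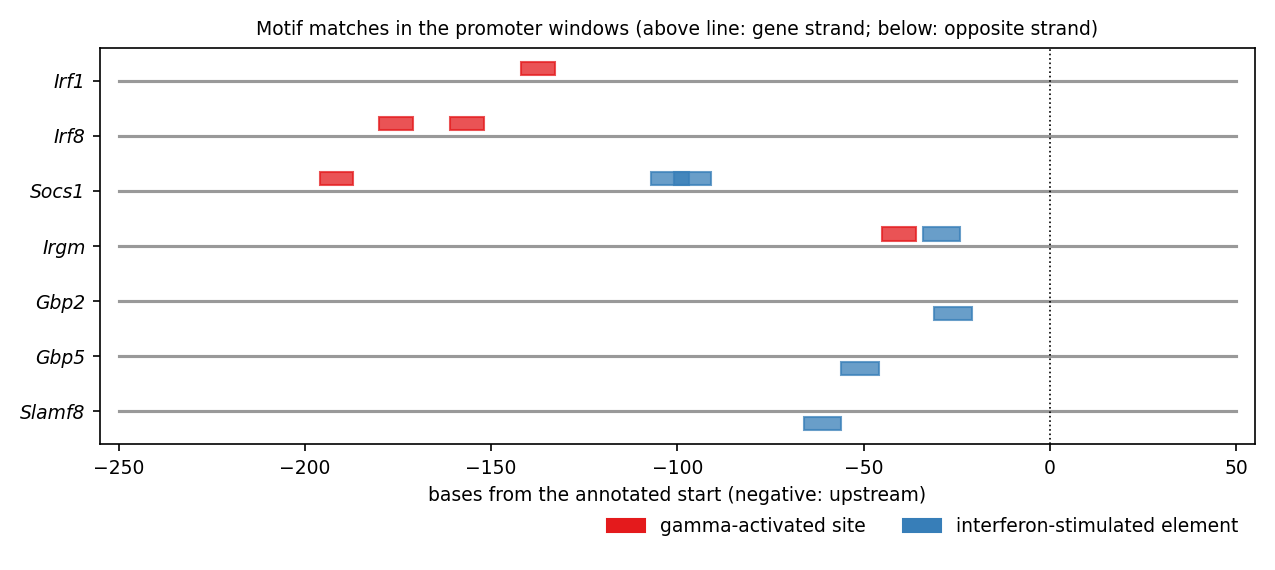
Position of each motif match in the promoter windows of 7 response genes, in bases from the annotated start. Red boxes are gamma-activated sites and blue boxes interferon-stimulated elements, drawn above the line on the gene's strand and below it on the opposite strand; all 11 lie upstream of the start.

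On the Plin2 array all 9 response genes exceeded their empty vector levels, where 31.1% of all 14506 genes did, with a median difference of 1.21 (2.31-fold). Of all genes, 26.7% lay below the empty vector and 42.1% were exactly equal to it, which no response gene was. Of the 9 genes, 8 passed 1.5-fold, a size reached upward by 6.73% of all genes, and 6 passed 2-fold, against 1.89% of all genes. On the Plin5 array the same genes split. Irf1, Irgm, Socs1, Gbp5, Gbp2 and Slamf8 were above the empty vector by 1.24-fold to 1.69-fold, Ido1 and Ciita differed from it by at most 1.05-fold, and Irf8 was below it by 1.42-fold. In all, 7 of the 9 lay above 0, against 22.1% of all genes, and 6 passed 1.2-fold upward, against 1.33%. Of all genes, 28.1% lay below 0 and 49.8% were exactly equal on these arrays. Irf1 alone passed 1.5-fold, where 0.165% of all genes did upward, and Irf8 alone passed 1.2-fold downward, where 4.59% did. The members were picked with such results known, so these shares describe the genes and are no test of the group. In whole muscle, more cells of a type and more RNA per cell cannot be told apart.

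**Figure D2:**
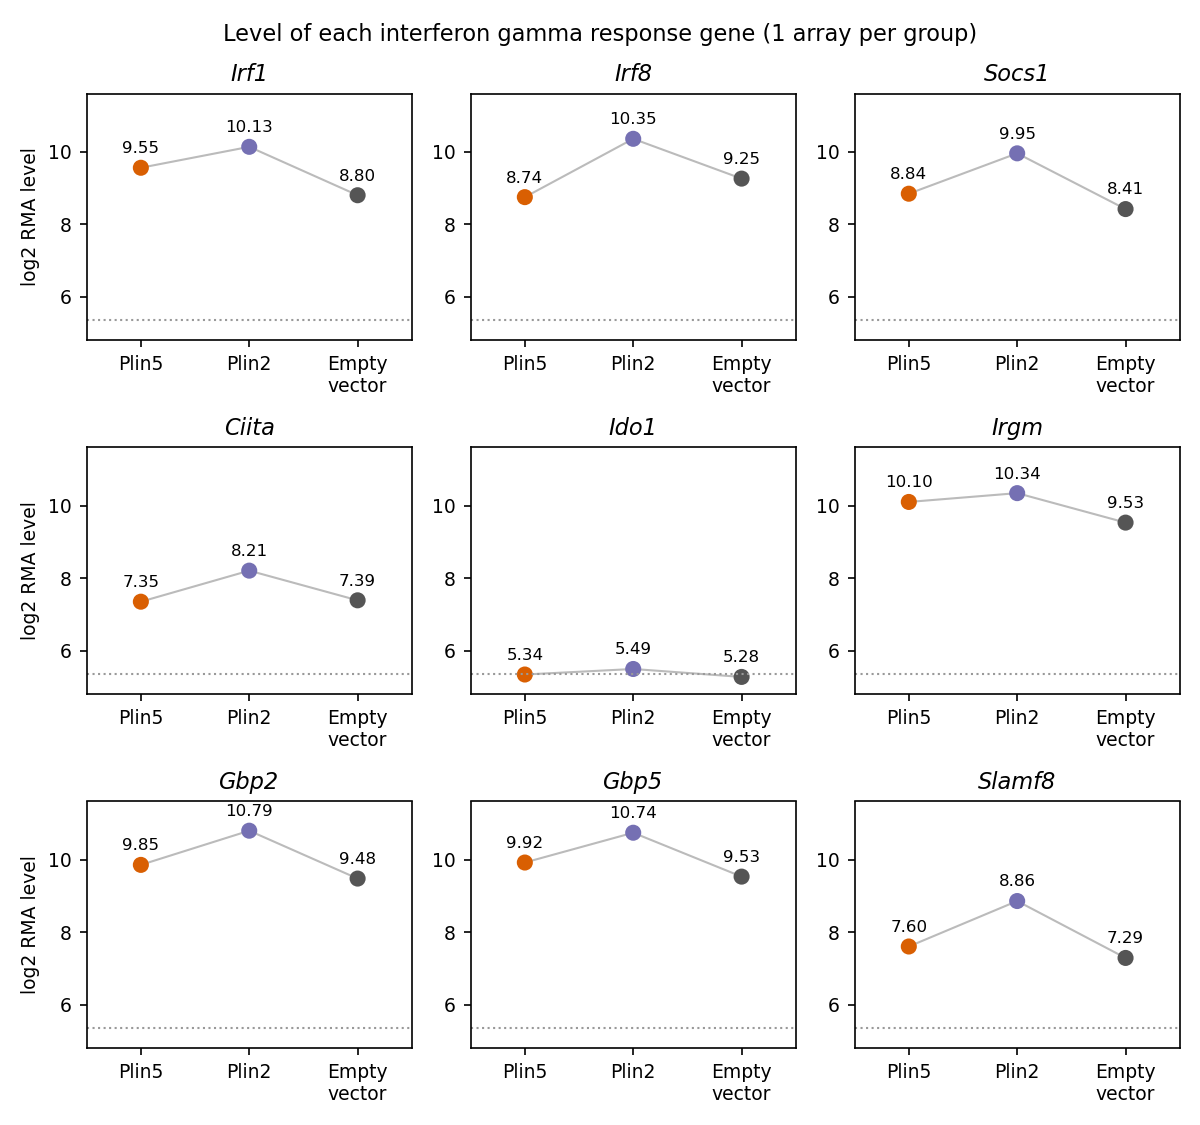
Log2 RMA level of each response gene on the Plin5, Plin2 and empty vector arrays, 1 array per group, with the value printed above each point. The dotted line is the 25th percentile of mean level over all genes (5.34); Ido1 lies at that line, the Plin2 point is the highest in all 9 panels, and for Irf8 and Ciita the Plin5 point is the lowest.

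Irf1 is the transcription factor that is induced early and carries the signal on to the later genes. Its log2 level was 9.55 on the Plin5 array and 10.13 on the Plin2 array, against 8.80 for the empty vector. Both perilipin arrays stood above the control, by 0.76 (1.69-fold) for Plin5 and 1.33 (2.52-fold) for Plin2. The Plin5 difference was among the highest on that array, with 14 of all genes above it, and the Plin2 difference had 83 genes above it. Irf1 was 1.49-fold lower on the Plin5 than on the Plin2 array, just short of 1.5-fold.

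Irf8 is a related factor needed for the development of monocytes and dendritic cells, and it is made in those cells without interferon too. It stood at 8.74 on the Plin5 array and 10.35 on the Plin2 array, against 9.25 for the empty vector. The perilipin arrays therefore lay on opposite sides of the control, with differences of −0.51 for Plin5 and 1.10 for Plin2. Its gap of −1.61 between Plin5 and Plin2 (3.05-fold) was the widest of the 9 genes. The promoter window of Irf8 holds the same kind of site as that of Irf1. Most macrophage markers ran the same way as Irf8, with 10 of 12 below the control on the Plin5 array (Cd163 and Lyz2, at 0.04 and 0.03, were not) and all 12 above it on the Plin2 array. The 12 markers averaged 9.22 on the Plin5 array and 10.79 on the Plin2 array, against 9.69 for the empty vector, with every marker above the dim level and Cd68 at −0.66 and 1.27 in the same comparisons. Whether macrophage number set the Irf8 level was not tested.

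Among the other interferon regulatory factors, Irf5 and Irf7 resembled Irf8 rather than Irf1 in direction. Irf5, a macrophage factor of Toll-like receptor signalling, differed by −0.68 on the Plin5 array and 1.03 on the Plin2 array. Irf7, the amplifier of type I interferon, differed by −1.14 and 1.09. Irf2, which competes with Irf1 for DNA, was at 0.00 and 0.40, Irf3 at −0.02 and 0.06, and Irf4 was exactly equal on all 3 arrays. Irf9, a DNA-binding partner of Stat2, was at −0.18 and 0.60. Irf1 was thus the 1 gene of the 8 measured that lay above the empty vector on the Plin5 array.

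Socs1 binds the Jak kinases and shuts down interferon gamma signalling, so it is both a target and a brake. Its level was 8.84 on the Plin5 array and 9.95 on the Plin2 array, against 8.41 for the empty vector. The Plin5 array lay between the others, 0.42 (1.34-fold) above the control, while Plin2 was 1.54 (2.90-fold) above it with 34 of all genes higher. Of the 7 SOCS genes measured, Socs1 and Socs3, a brake on Jak kinases at cytokine receptors, were the ones at least 1.5-fold above the empty vector on the Plin2 array. Socs3 was at 0.97 there and at 0.73 on the Plin5 array. Cish (−0.50), Socs6 (−0.43) and Socs2 (−0.43) were lower on the Plin2 array and differed by at most 0.10 from the empty vector on the Plin5 array.

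The gene of the ligand was dim on the control array. Ifng stood at 6.15 on the Plin5 array and 6.54 on the Plin2 array, against 5.24 for the empty vector, which is under the dim level of 5.34. It was above the control on both, by 0.91 for Plin5 and 1.30 for Plin2, and these sizes are uncertain because the control value is dim. The receptor chains Ifngr1 and Ifngr2 were at −0.15 and −0.01 on the Plin5 array, and at 0.44 and 0.34 on the Plin2 array. Jak1 was at 0.00 and 0.15, and Jak2 at 0.01 and 0.77. Stat2 was at −0.01 on the Plin5 array and 1.00 on the Plin2 array, and Stat3 at 0.07 and 0.37.

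Negative regulators of the pathway showed no single direction on the Plin5 array. Ptpn6, a phosphatase of blood cells, was at −0.38 on the Plin5 array and 1.07 on the Plin2 array. Ptpn2, a phosphatase of Jak kinases, was at 0.00 in both comparisons, and Pias1, a further inhibitor of cytokine signalling, at −0.07 and 0.22. Of the 12 ligand, receptor and signalling genes measured, 6 passed 1.5-fold upward on the Plin2 array. On the Plin5 array 2 did, Ifng and Socs3.

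Ciita is the coactivator without which class II antigen presentation genes are silent, and interferon gamma induces it in part through Irf1. Its level was 7.35 on the Plin5 array and 8.21 on the Plin2 array, against 7.39 for the empty vector. Plin2 stood 0.82 (1.76-fold) above the control, and Plin5 was almost level with it, at −0.04. The sign of that small difference depended on scaling: after median-centring of the arrays it was 0.0012.

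Genes that Ciita switches on followed its direction on the Plin2 array, where all 9 measured lay above the empty vector and 3 passed 1.5-fold (median 0.49). On the Plin5 array 7 of the 9 lay below the control (median −0.21), where 28.1% of all genes did and 49.8% were equal to it. RT1-Da, a class II chain, was at −0.59 on the Plin5 array and 0.87 on the Plin2 array. RT1-DMa, which helps load peptides, was at −0.26 and 0.97, and Cd74, the invariant chain, at −0.21 and 0.42. RT1-Bb (0.22) was the gene above the control on the Plin5 array. Macrophages carry class II proteins, and 10 of their 12 markers were below the control on the Plin5 array as well. Their part in the class II values was not tested.

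Interferon-inducible GTPases are effectors that act inside the infected cell. Gbp2 and Gbp5 are guanylate-binding proteins, which coat and break open the vacuoles of microbes, and Gbp5 promotes inflammasome assembly in mouse. Gbp2 stood at 9.85 on the Plin5 array and 10.79 on the Plin2 array, against 9.48 for the empty vector. Gbp5 stood at 9.92 on the Plin5 array and 10.74 on the Plin2 array, against 9.53 for the empty vector. The pair had nearly the same differences, 0.38 and 0.39 for Plin5 and 1.32 and 1.21 for Plin2. Their windows lie on the same chromosome and each holds 1 interferon-stimulated element near the start. Guanylate-binding proteins are close relatives in sequence, so probes of 1 gene may also have detected another.

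Irgm belongs to the immunity-related GTPases, and its mouse counterparts keep other GTPases of the family from acting on the cell's own membranes. Its level was 10.10 on the Plin5 array and 10.34 on the Plin2 array, against 9.53 for the empty vector. Here both perilipin arrays were close to each other, at 0.57 (1.48-fold) and 0.81 (1.76-fold) above the control, and Plin5 was 1.18-fold below Plin2. Igtp and Ifi47, further immunity-related GTPases, were at 0.51 and 0.48 on the Plin5 array and at 0.69 and 1.18 on the Plin2 array. Of the 5 GTPases measured, 3 of them members, all passed 1.5-fold upward on the Plin2 array. On the Plin5 array all 5 lay above the empty vector, by 0.38 to 0.57, and none passed 1.5-fold.

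Ido1 begins the breakdown of tryptophan to kynurenine and is a strongly interferon gamma-dependent enzyme in human macrophages. It stood at 5.34 on the Plin5 array and 5.49 on the Plin2 array, against 5.28 for the empty vector. These levels straddle the dim level of 5.34, and the differences of 0.07 and 0.22 are small; Ido1 passed the dim filter by its mean of 5.37 over the 3 arrays. Further along the pathway, Kynu (1.06) and Kmo (0.89) were higher on the Plin2 array, and Kyat1 (−0.75) and Kyat3 (−0.46), which make kynurenic acid, were lower. On the Plin5 array, Kmo (−0.18), Kyat3 (0.13) and Kynu (−0.08) had the widest differences of the 9 enzymes measured.

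Slamf8 is a surface receptor of myeloid cells that restrains the oxidative burst in mouse macrophages. Its level was 7.60 on the Plin5 array and 8.86 on the Plin2 array, against 7.29 for the empty vector. With 1.57 (2.97-fold) it had the largest Plin2 difference of the 9 genes, and 27 of all genes exceeded it; Plin5 was 0.32 (1.24-fold) above the control. Its relative Slamf9, also a myeloid receptor, was at 1.41 on the Plin2 array but at −1.46 on the Plin5 array. On the Plin5 array Slamf8 lay above the control, and Slamf9 and most macrophage markers lay below it. Whether macrophage number set the Slamf8 level was not tested. Cd48, found on most blood cells, was at −0.16 and 0.43.

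**Figure D3:**
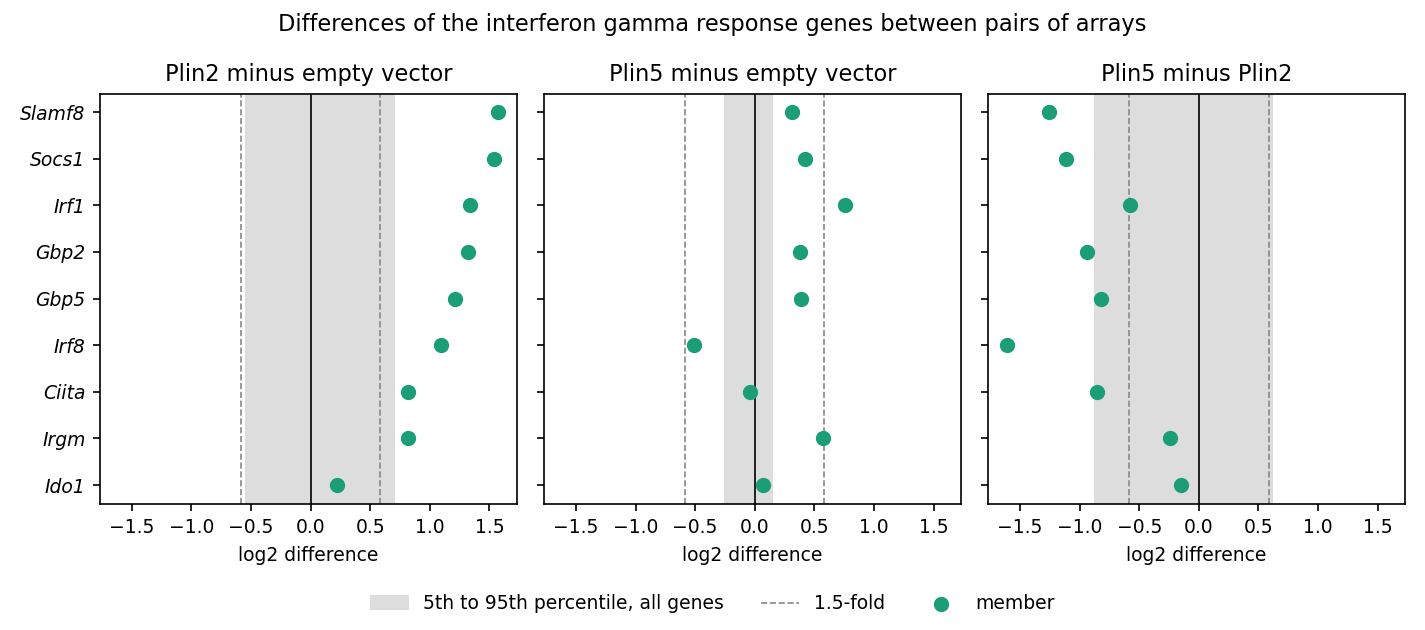
Log2 difference of each response gene in the 3 comparisons. Green points are genes, the grey band spans the 5th to 95th percentile of all 14506 genes, and dashed lines mark 1.5-fold; on the Plin5 array 6 genes lie right of the band and Irf8 left of it, and on the Plin2 array Ido1 alone is inside the band.

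Set against each other, the Plin5 array was below the Plin2 array for all 9 response genes, where 32.5% of all genes were, with a median difference of −0.86 (1.81-fold). Of all genes, 27.6% lay above 0 here and 39.8% were exactly equal. Of the 9 genes, 6 passed 1.5-fold downward, against 8.57% of all genes, and 3 passed 2-fold, against 3.92%: Irf8 (−1.61), Slamf8 (−1.25) and Socs1 (−1.11). The narrowest gaps were those of Ido1 (−0.15), Irgm (−0.24) and Irf1 (−0.58). All 3 comparisons draw on the same 3 arrays, so none of them is independent of the others. The plasmid backbone differs in the comparisons with Plin2, so backbone and insert cannot be told apart there.

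Chemokines that interferon gamma induces also stood higher on both perilipin arrays. Cxcl11 was at 0.95 on the Plin5 array and 2.29 on the Plin2 array, Cxcl9 at 0.84 and 0.91, and Cxcl10 at 0.49 and 1.93. All 3 attract activated T cells through Cxcr3. The adhesion genes differed, with Icam1 at 0.19 and 1.08 and Vcam1 at −0.07 and 0.95, and the T cell chemokine Ccl5 was at 0.05 and 0.96. All 6 passed 1.5-fold on the Plin2 array, and Cxcl9 and Cxcl11 did on the Plin5 array. Gamma-activated sites stood in 3 of 5 promoter windows of this list, those of Cxcl9, Cxcl11 and Icam1. They were also in 3 of 5 GTPase windows, 3 of 7 of the interferon regulatory factors and 2 of 5 of the SOCS genes, lists that include response genes. Other lists held few: 1 of 11 windows of the signalling genes and 1 of 9 of the class I genes. Windows without the site were all 8 class II, 8 kynurenine, 4 SLAM and 5 other interferon gamma induced gene windows.

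Other genes induced by interferon gamma had no single direction on the Plin5 array, where they ranged from −0.42 to 0.97 (median −0.09). Acod1, which makes itaconate, stood at 0.97 on the Plin5 array and 0.94 on the Plin2 array. Nos2, the inducible nitric oxide synthase, was at 0.72 and 0.61. For these genes the Plin5 array was about as far above the control as the Plin2 array. Il18bp, a secreted inhibitor of interleukin-18, was at 0.37 and 0.98. In contrast, the Fc receptor Fcgr1a was at −0.38 and 1.44, and Cybb, the core of the phagocyte oxidase, at −0.42 and 1.17. Ifi30 was at −0.08 and 1.18, and the remaining genes lay between −0.17 and 0.03 on the Plin5 array. On the Plin2 array 9 of the 10 measured genes passed 1.5-fold.

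Class I presentation genes were higher on the Plin2 array, where 5 of 10 passed 1.5-fold (median 0.46), and close to the control on the Plin5 array, where none did (median 0.00). The peptide transporter gene Tap1 was at 1.14 on the Plin2 array and 0.28 on the Plin5 array. Of the immunoproteasome subunits, Psmb9 was at 1.05 and 0.44, but Psmb8 at 0.86 and −0.22. Tapbp, the tapasin gene, was at 0.86 and −0.15. Tap1 and Psmb9 were the highest of this list in both comparisons, and 7 of its 9 promoter windows held an interferon-stimulated element.

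Type I interferon antiviral genes ran against the response genes on the Plin5 array. All 14 measured lay below the empty vector there (median −0.51), while the response genes had a median of 0.38 and all genes of 0.00. On the Plin2 array both groups were higher, at medians of 1.25 and 1.21. Mx2, a GTPase that blocks viruses, was at −1.76 on the Plin5 array and 1.22 on the Plin2 array. Oasl was at −1.17 and 1.66, and Oas2 at −1.15 and 1.09. These were the widest on the Plin5 array, where the list reached up to −0.14. Ifit3, the highest of the list on the Plin2 array at 1.72, was at −0.31 on the Plin5 array. Promoter windows were found for 8 of the 14, of which 6 held an interferon-stimulated element and 1 a gamma-activated site. Among the response genes, Irf8 has a pair of gamma-activated sites and lay below the control on the Plin5 array. Whether either motif goes with direction was not tested.

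Markers of some cell types, not all, moved together with some of these groups. T cell markers were above the empty vector on the Plin2 array for all 9 genes (median 0.88) and below it on the Plin5 array for 7 of 9 (median −0.32). They averaged 7.29 on the Plin5 array and 8.44 on the Plin2 array, against 7.51 for the empty vector. Natural killer cell markers, some shared with killer T cells, averaged 7.67 on the Plin5 array and 8.63 on the Plin2 array, against 7.61 for the empty vector. All 7 lay above the control on the Plin2 array, and on the Plin5 array 4 lay above it and 2 below (median 0.10). That median is the value of a gene under the dim level. Gzmb, a killing protease, was at 0.79 on the Plin5 array and 2.14 on the Plin2 array, whereas the receptor genes Klrd1 and Klrk1 were at −0.48 and −0.44 on the Plin5 array. Dendritic cell markers averaged 6.69 on the Plin5 array and 7.34 on the Plin2 array, against 7.07 for the empty vector. Of the 6 measured, 5 were above the dim level. On the Plin5 array 4 lay below the control and 2 were equal to it (median −0.31), with Xcr1 far the lowest at −1.33. On the Plin2 array the medians were 0.00 for B cell and for neutrophil markers, 0.04 for endothelial and 0.18 for fibroblast markers. On the Plin5 array these medians were 0.00, 0.00, 0.00 and −0.16. Only 1 of 3 B cell and 1 of 6 neutrophil markers were above the dim level, the latter Csf3r, at 1.66 on the Plin2 array and −0.35 on the Plin5 array. The part of these cells in the response gene values was not tested. As a check of the tissue, 10 muscle fibre genes such as Acta1 and Ckm averaged 13.55 on the Plin5 array and 13.24 on the Plin2 array, against 13.51 for the empty vector. All 10 lay below the control on the Plin2 array (median −0.16), from Acta1 at −0.02 to the myosin gene Myh2 at −0.98, the 1 of them past 1.5-fold.

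**Figure D4:**
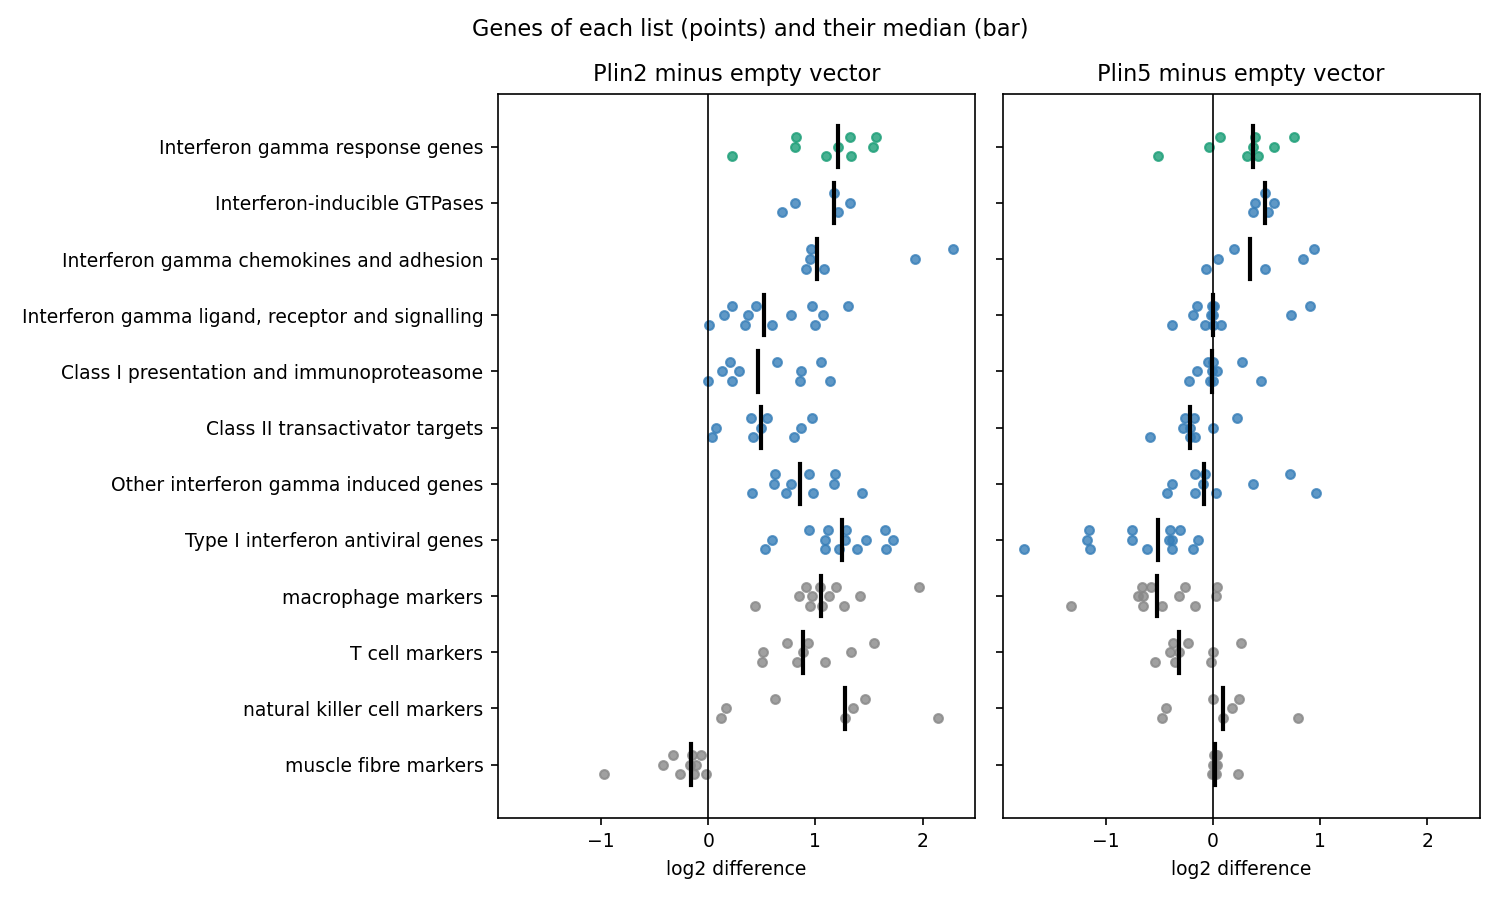
Log2 difference of every measured gene of 12 lists in the Plin2 and Plin5 comparisons with the empty vector; points are genes and black bars list medians. Green marks the response genes, blue interferon-related lists (the GTPase list shares 3 genes with the green one) and grey cell type markers; on the right, the top 3 lists have medians above 0, all type I antiviral genes lie below 0, and so do 10 of 12 macrophage markers.

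Genes with a pattern most like the response genes were sought by the distance between their Plin2 and Plin5 differences and the members' median pair of 1.21 and 0.38, over the 3 arrays. The closest were Il1b (distance 0.06 log2 units), an inflammatory cytokine, and Ccl4 (0.07), a chemokine of macrophages and T cells. They were followed by Erbb3 (0.08), a neuregulin receptor, Ifi47 (0.11), the GTPase described above, and Tap1 (0.12). With 3 arrays many genes can lie near any pair of values, so the likeness describes these arrays alone. The introduced genes had their highest levels on their own arrays. Plin5 stood at 8.30 on the Plin5 array and 6.79 on the Plin2 array, against 7.52 for the empty vector. Plin2 stood at 10.08 on the Plin5 array and 10.71 on the Plin2 array, against 9.99 for the empty vector.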

How the data were processed

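Deposited values were log2 expression levels made by the authors with RMA (robust multi-array average), per the submitters' processing notes, which give no version. RMA corrects background, normalizes arrays to a common distribution and summarises each probe set. The table does not name its log base, which was taken as log2 from the range. The authors' chip annotation and genome build: not given in the sources used here. Per the labels' protocols, equal amounts of RNA from 6 rats were pooled per group, with RNA integrity above 8. The sham-electroporated contralateral muscle was not analysed here.

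Only the 15310 of 29214 probe sets listed under exactly 1 symbol were used; 323 carried several and 13581 none, and 15279 of those used matched the RefSeq table (GRCr8) by gene number. Each of 14506 genes was represented by its probe set of highest mean level. The dim level was the 25th percentile of mean level (5.34), above which 10879 genes lay, and all 9 members passed it. Differences are log2 values of 1 array minus another, with no test; 1.5-fold was used for counts, and a gene counts as above or below only on exact inequality. Exactly equal values on both arrays were held by 42.1% of genes for Plin2 against empty vector, 49.8% for Plin5 against empty vector and 39.8% for Plin5 against Plin2. Members, gene lists and naming rule (all members, ligand and signalling genes and GTPases, otherwise the 3 largest differences of a list and genes that ran against it) were chosen with earlier results of these data known. Some further genes were named after their values were seen: Vcam1, Ccl5, Irf2, Irf3, Irf4, Cd68, Cd163, Lyz2, Cd74, Tapbp, Acta1 and Ckm. Calls and motif searches were checked on simulated data with planted shifts and motifs, which checks the code and not the spread between animals. Python 3.11.15 was used with pandas 2.3.3, numpy 2.4.6, statsmodels 0.14.6 for loess, and matplotlib 3.10.9.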

Additional observations from a re-analysis of the deposited data

How the results depend on the processing

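Other scalings (centring, quantile normalization, loess on level) and, chosen after seeing the data, leaving out Ido1 changed few results. Probe set averaging, the dim filter and leaving out equal members could not change the member results. Each member had 1 probe set, all passed the filter, and none was equal on 2 arrays. The 108 values below include those of probe set averaging, which only repeat the main values. Of 108 alternative values of single members, 97 moved by at most 0.1 log2 units on the same side of 1.5-fold, 9 moved further without crossing it, Irgm on the Plin5 array reached 0.61 against the empty vector after centring, and Ciita there reversed to 0.0012. Centring therefore gave 2 members past 1.5-fold on the Plin5 array, and it gave a median of −0.73 for Plin5 against Plin2, since it removes a shift of −0.12. At 1.2-fold, 6 members were higher and 1 lower on the Plin5 array than on the empty vector array; at 2-fold, 0 were higher, and 3 were lower on the Plin5 than on the Plin2 array. Means in place of medians gave 1.10 for Plin2 and 0.26 for Plin5 against the empty vector. Centring also turned the split of all genes past 1.5-fold to 783 higher and 826 lower for Plin2 against empty vector (976 and 632 as deposited), and to 1115 higher and 992 lower for Plin5 against Plin2 (784 and 1243 as deposited). No paired analysis was possible because each group has 1 array. Signal limits Ido1, which lies at the dim level, and Ifng, whose empty vector value lies under it.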
